A study of Hernandia nymphaeifolia with 9 samples.

Results

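In leaves of Hernandia nymphaeifolia, a coastal tree that grows beside mangroves, 32 of 315331 assembled genes were lower after 7 d of salt water than in fresh water and lay at an intermediate level after 14 d, apart from 1 that had no count in any salt library. The genes were selected on these measured levels: in CPM, the counts of a gene per 1000000 counts of its library, the mean of the control libraries was under 500, the lowest control library was at least 10 and at least 1.5 times the highest 14 d library, and the lowest 14 d library was at least 1.5 times the highest 7 d library. The fall and the partial return are therefore described, and no test of them is read as evidence. The study asked how seedlings adjust their transcripts to salinity. Leaf polyadenylated RNA of 2-year-old seedlings was sequenced, with 1 seedling per library and 3 per group. The control group stood in fresh water, and the other groups received 300 mM NaCl for 7 d or 14 d. All seedlings were flooded up to the branches for 3 h in each 12 h, in place of tides, and the sampling day of the control is not given in the labels, so that plant age and time in salt cannot be told apart.

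Salt reaches a leaf first as a shortage of water and later as an excess of sodium and chloride ions. In many plants, leaf transcripts for growth and photosynthesis decline after such a shock, and some regain part of their level while the plant adjusts its osmotic and ion balance. Whether the 32 genes serve any of these functions is not known here, because the files pair no name with the identifiers. A gene in this sense is a group of transcripts that the assembler placed together, and its isoforms are the members of that group. CPM is a share of the library and takes no account of transcript length, so the order of the genes by CPM is not an order of molecule numbers. In whole leaves, fewer cells of a type and less RNA per cell cannot be told apart. The labelled tissue could not be checked against leaf markers for want of names.

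Together the 32 genes made up 0.267 ± 0.035% of all counts in control leaves, 0.0341 ± 0.0032% at 7 d and 0.0888 ± 0.0113% at 14 d (SD, n = 3 each). In CPM their sum was 3040, 2345 and 2623 in control replicates 1, 2 and 3, 316, 377 and 329 at 7 d, and 847, 1016 and 802 at 14 d. The 3 groups did not overlap in this sum, and the 14 d seedlings lay between the others. Control means of single genes ran from 12.3 to 433 CPM with a median of 49.3. Under 25 CPM lay 10 genes, 16 lay from 25 to 100 CPM, and 6 were above.

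**Figure D1:**
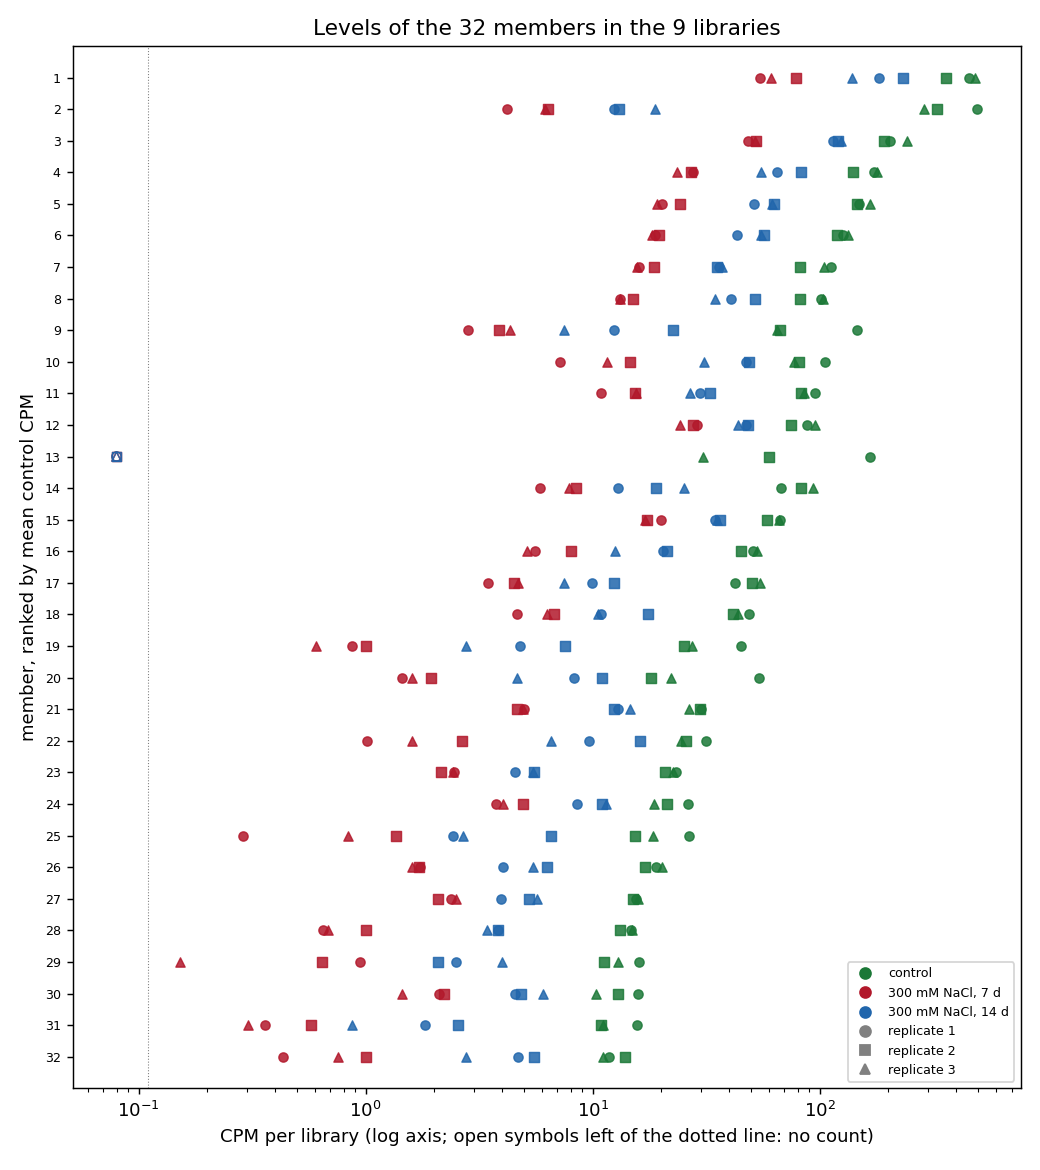
Level of each of the 32 genes (rows, ordered by mean control CPM) in each of the 9 libraries (CPM on a log axis; colour for the group, symbol for the replicate). The control symbols lie to the right, the 7 d symbols to the left and the 14 d symbols between them, except in row 13, where all 6 salt libraries had no count.

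Among the 31 genes with counts in salt, the mean level at 7 d was 1.505 to 31.3% of the control mean, with a median of 12.6%. This is a fall of 3.19-fold to 66.5-fold, with a median of 7.92-fold. Of the 31 genes, 28 fell at least 5-fold and 13 at least 10-fold. The rule places both of its 1.5-fold gaps between control and 7 d, so a fall in each gene was set by the selection. At 14 d the levels were 3.998 to 56.3% of control, with a median of 35.3%, so that 28 of 31 genes were still lower by 2-fold or more and 5 by 5-fold or more. From 7 d to 14 d the genes rose by 1.73-fold to 6.16-fold, with a median of 2.75-fold. The medians on the log2 scale were -2.99 at 7 d and -1.502 at 14 d relative to control. Over the 12787 genes within the same control limits and with counts in every group, these medians were -0.0055 and -0.0029. Those genes were not selected by a change, so the difference from them follows in part from the rule.

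**Figure D2:**
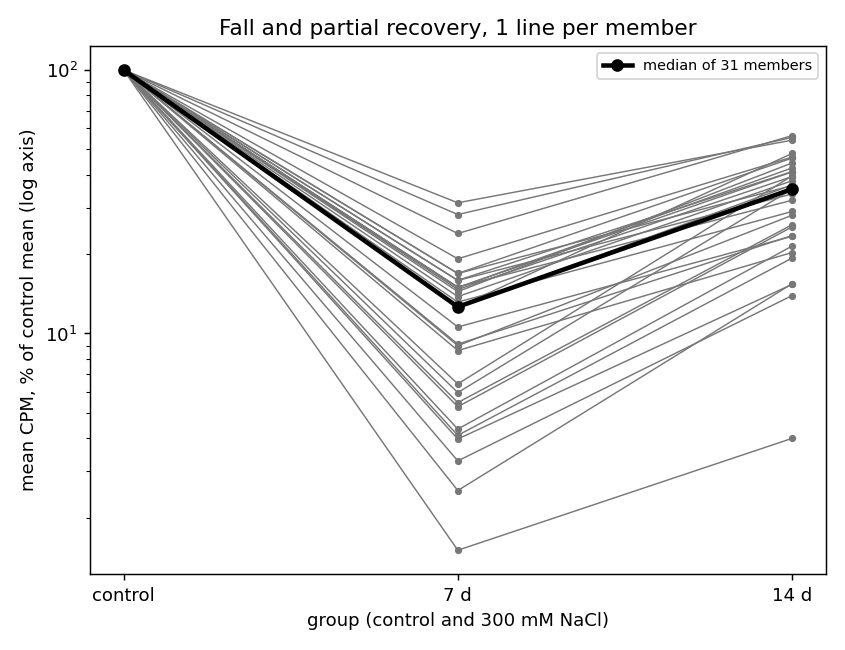
Mean CPM of each of the 31 genes with counts in salt, as a percentage of its control mean (log axis), at control, 7 d and 14 d (thin lines, 1 per gene; thick line, median). The median went to 12.6% at 7 d and 35.3% at 14 d, and the lowest line reached 1.505% and 3.998%.

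In the fit over 62564 genes, all 32 genes were called lower at 7 d than in control, against 13.9% of all genes tested. All 32 were called lower at 14 d than in control, against 8.4% of all genes tested. Higher at 14 d than at 7 d were 31 of 32, against 6.89% of all genes tested, and the exception was the gene without counts in salt. The calls rest on quasi-likelihood tests in edgeR, adjusted by Benjamini-Hochberg over all genes, on the contrasts that chose the genes, and carry no further information about them.

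How far a gene had come back was expressed as its recovered share, the part of the log2 distance from the 7 d mean to the control mean that had been covered at 14 d. The median over 31 genes was 0.51, with a range from 0.23 to 0.66. From 0.4 to 0.6 lay 22 genes, with 6 below and 3 above. The rule asks for a gap on both sides of the 14 d libraries, which keeps the share away from 0 and 1, so that its middle values are partly set by the selection. On the linear scale the return was smaller, since only 2.53 to 42.6% of the CPM lost at 7 d had been regained, with a median of 23.5%. For single 14 d seedlings the median recovered share was 0.45, 0.55 and 0.47 in replicates 1, 2 and 3. The rule holds each 14 d library between the 7 d and control libraries, which limits how far these medians can differ. Across the 31 genes, the size of the log2 fall and the recovered share had a Pearson r of -0.31 and a Spearman rho of -0.24. Without the gene with the largest fall r was -0.09. Both measures contain the same control and 7 d libraries, so the coefficients are a description only.

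**Figure D3:**
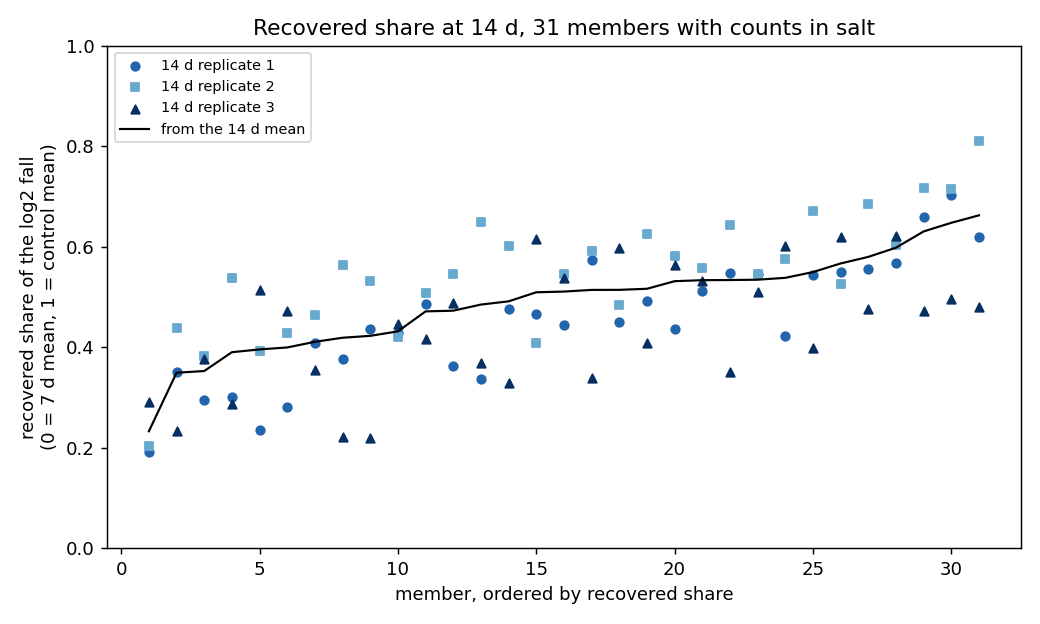
Recovered share at 14 d of each of the 31 genes (ordered by the value from the 14 d mean, black line), with the 3 libraries at 14 d as symbols; 0 is the 7 d mean and 1 the control mean on the log2 scale. The black line runs from 0.23 to 0.66, and replicate 2 is most often the highest symbol.

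The gene with the largest measured fall was TRINITY_DN511_c0_g2, second in control level. Its values were 495, 329 and 287 CPM in control, 4.20, 6.37 and 6.15 CPM at 7 d, and 12.5, 13.1 and 18.9 CPM at 14 d. Its lowest control library stood 15.2 times above its highest 14 d library, the widest such gap among the 31. The means were 371 ± 110.3, 5.58 ± 1.197 and 14.8 ± 3.53 CPM (SD, n = 3), a fall of 66.5-fold at 7 d and 25.02-fold at 14 d. With a recovered share of 0.23 it was also the gene that had returned least, and it regained 2.53% of the lost CPM. Its counts were spread over 9 isoforms, and the share of the isoform that led in control spread apart at 14 d. This share was 32.7, 32.5 and 31.9% in control, 27.6, 32.6 and 35.8% at 7 d, and 50, 39.4 and 15.8% at 14 d. The 14 d seedlings thus lay on both sides of the control range. At 7 d the isoform had 74 of the gene's 228 counts over the group, so the differences there rest on few counts.

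TRINITY_DN6642_c0_g3 met the limits without any recovery, because 0 is not less than 1.5 times 0. It was at 166, 60.03 and 30.6 CPM in the 3 control libraries and had no count in the 6 salt libraries. The control libraries differed from each other by 5.43-fold, the highest being replicate 1. Against a bound of 3 counts over each salt group the level was lower by at least 1168-fold after 7 d and at least 1161-fold after 14 d. Without control replicate 1 its control mean was 45.3 rather than 85.6 CPM and the bounds were 618-fold and 615-fold. No other gene among the 12788 within the control limits was without counts in all salt libraries. These bounds cover counting error only, and the gene does not bear out a description as partly recovered.

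The largest rises from 7 d to 14 d belonged to genes of lower level. TRINITY_DN16634_c0_g3 was at 31.6, 25.7 and 24.4 CPM in control, 1.01, 2.65 and 1.59 CPM at 7 d, and 9.62, 16.2 and 6.56 CPM at 14 d. It rose 6.16-fold between the salt times and had the highest recovered share, 0.66, and its highest 14 d library came within 1.51-fold of its lowest control library. TRINITY_DN39488_c0_g1 was at 45.0, 25.3 and 27.5 CPM in control, 0.869, 1.003 and 0.608 CPM at 7 d, and 4.77, 7.55 and 2.77 CPM at 14 d. It fell 39.4-fold and then rose 6.09-fold, from 34 counts over all 7 d libraries to 204 at 14 d. Both genes had replicate 2 highest and replicate 3 lowest at 14 d.

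The gene with the highest control level had 455, 360.3 and 485 CPM in control, 54.6, 78.5 and 61.1 CPM at 7 d, and 182, 232 and 138 CPM at 14 d. It fell 6.70-fold and stayed 2.35-fold lower at 14 d. The third gene in control level differed little between seedlings in salt, with 204, 192 and 243 CPM in control, 48.5, 52.4 and 52.0 CPM at 7 d, and 115, 121 and 124 CPM at 14 d. It covered 0.60 of its log2 fall of 4.17-fold and was among 3 genes that were less than 2-fold lower than control at 14 d. The fourth to eighth genes had control means from 95.8 to 164 CPM, fell 5.92-fold to 7.25-fold, and had recovered shares from 0.43 to 0.58. Of the 10 genes highest in control, the second and the ninth had the largest falls, 66.5-fold and 25.1-fold. The tenth fell 7.95-fold and had a recovered share of 0.65.

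At the other end, the gene with the lowest control mean was at 11.8, 13.9 and 11.1 CPM in control, 0.434, 1.003 and 0.760 CPM at 7 d, and 4.70, 5.53 and 2.77 CPM at 14 d. It had a recovered share of 0.63. The smallest fall, 3.19-fold, was that of a gene with 87.5, 74.5 and 95.1 CPM in control, 28.8, 27.6 and 24.2 CPM at 7 d, and 47.2, 48.5 and 43.6 CPM at 14 d. It also lay nearest to the limit between 14 d and 7 d, with a ratio of 1.51. Low levels at 7 d rest on few counts: in 6 of 31 genes the highest 7 d library had under 20 counts, in 12 under 50, and the least was 8. The rise of those genes from 7 d is thus known with less precision than that of the others.

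The limits cut through a continuous range of values. Between control and 14 d the nearest gene inside had a ratio of 1.506 and the nearest outside 1.498, and 525 genes failed only this limit. Between 14 d and 7 d the nearest values were 1.512 inside and 1.495 outside, with 601 genes failing only here. The counts of 525 and 601 include genes that were not lowered at 7 d by a 1.5-fold gap. The lowest control library was 10.4 CPM just inside and 8.76 CPM just outside, with 226 genes failing only this limit. The control mean was 433 CPM just inside and 519 CPM just outside, with 3 genes failing only here. A fold limit midway between 1 and 1.5 gave 134 genes and limits of 2-fold gave 8. Leaving out a library loosens the rule, and the number of genes was then 57 without 7 d replicate 2 and 49, 69 and 62 without 14 d replicates 1, 2 and 3.

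Of 12788 genes within the control limits, 1338 had their lowest control library at least 1.5 times above their highest 7 d library. Part of the 1338 could not be partly recovered under the rule, as a gap near 1.5-fold leaves no room for both of its gaps. The 31 partly recovered genes were 2.32% of the 1338, a share that depends on these limits. Another 403, or 30.1%, had all 14 d libraries at least 1.5 times above the 7 d libraries but no 1.5-fold gap to control, and in 179 of them the 14 d mean had reached the lowest control library or passed it. In 886 genes, or 66.2%, the 14 d libraries were not separated from those at 7 d in either direction. Of these, 348 were also at least 1.5 times below control at 14 d in all libraries, and the others were separated by that gap from neither group. A further 17 genes were lowered further at 14 d. The rest of the 403 had a 14 d mean below the lowest control library, so some genes outside the limits were also between 7 d and control. The opposite rule, with control and 7 d exchanged, found 36 genes, which by 14 d had lost a median of 0.39 of their log2 rise (0.18 to 0.58). These sets share libraries and were chosen by the same values, and their difference was not tested.

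The spread between replicates of the 31 genes was as follows. The ratio of the highest to the lowest library had a median of 1.28 in control, 1.43 at 7 d and 1.51 at 14 d, against 1.24, 1.198 and 1.21 over the genes within the control limits. Levels were lower in both salt groups than in control, with medians of 49.1 CPM in control, 4.86 CPM at 7 d and 13.3 CPM at 14 d. The lowest levels were thus at 7 d and the largest median ratio at 14 d. The highest ratio of a single gene was 6.20 at 7 d and 3.02 at 14 d. The part of low counts in the spread was not tested. Single seedlings were also high or low across many of the genes at once. At 7 d replicate 2 was the highest in 20 of 31 genes and lay by a median of 0.30 on the log2 scale above the other libraries of its group, against 0.03 over all genes within the control limits. At 14 d replicate 2 was the highest in 21 genes, with a median of 0.22 against 0.03. In control replicate 2 was the lowest in 21 genes, with a median of -0.18 against -0.02. At 14 d the order replicate 2, 1, 3 from high to low was found in 15 of 31 genes.

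**Figure D4:**
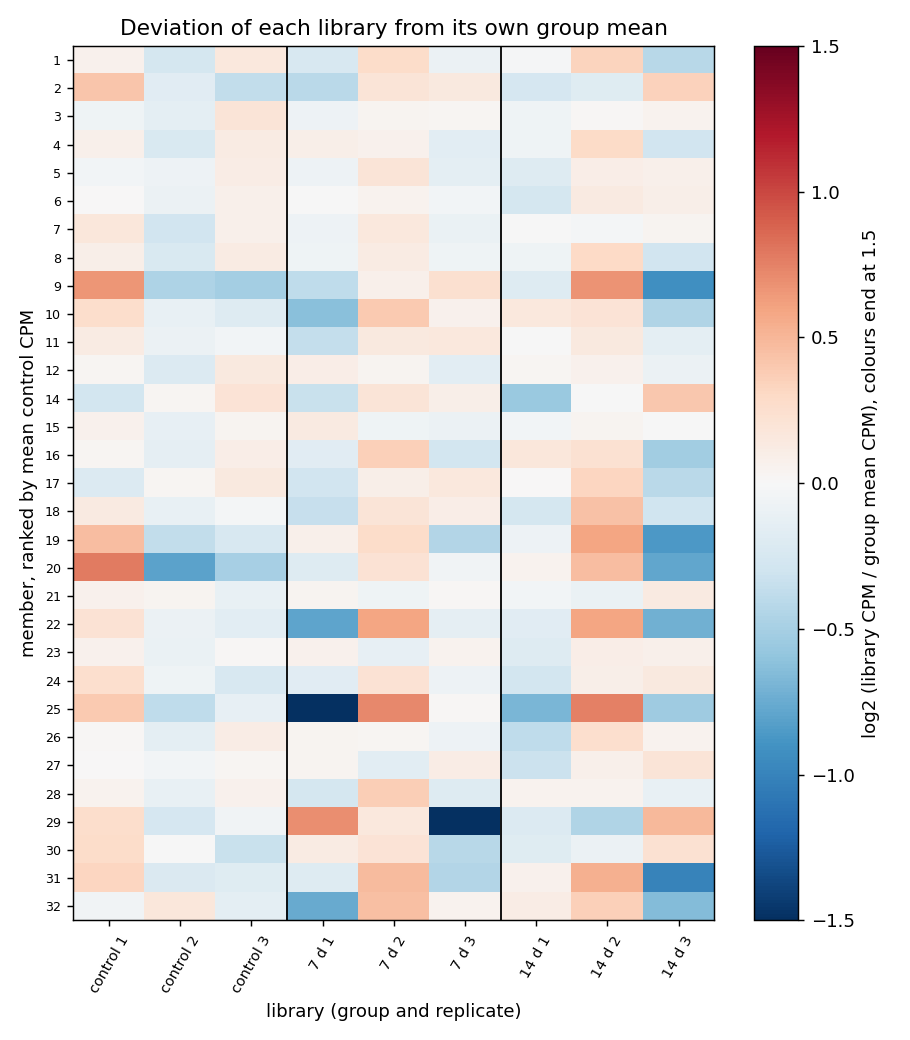
Deviation of each library (columns) from the mean of its own group, as log2 of the ratio of CPM, for the 31 genes with counts in salt (rows, numbered by mean control CPM); red is above and blue below the group mean, and 2 cells beyond -1.5 have the end colour. The columns of 7 d replicate 2 and 14 d replicate 2 are mostly red. The column of 14 d replicate 3 is blue in rows 9, 19, 20, 22, 25 and 31 and in others, and is the lowest of its group in 16 of the 31 rows.

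In 6 genes the 14 d libraries differed by 2-fold or more, from 2.36-fold to 3.02-fold, a group singled out after its values were seen. In all 6 the highest 14 d library was replicate 2, against 21 of all 31 genes. The highest control library was replicate 1 in all 6, against 17 of 31. In 5 of 6 the lowest 14 d library was replicate 3, against 16 of 31. In 5 of 6 the highest 7 d library was replicate 2, against 20 of 31. Just below the cut, a gene at 1.998-fold had control replicate 2 highest. Another, at 1.95-fold, had replicate 3 highest both in control and at 14 d. The 6 genes had a median control level of 29.3 CPM and falls at 7 d of 15.5-fold to 39.4-fold. The other 25 had a median control level of 64.0 CPM and falls of 3.19-fold to 66.5-fold, with a median of 6.93-fold, so that the falls overlapped. The recovered share was nearly the same, with medians of 0.49 and 0.51. The ninth gene in control level had this order in control and at 14 d, but its highest 7 d library was replicate 3, with 146, 66.9 and 64.6 CPM in control, 2.82, 3.87 and 4.33 CPM at 7 d, and 12.4, 22.7 and 7.51 CPM at 14 d.

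The rule used sums over isoforms, so the division of a gene among its isoforms was not part of it. The 32 genes had 109 isoforms with counts, with a median of 3 and at most 9 per gene, and 8 genes had a single one. Among the 31 genes with counts in salt, 97 isoforms had a mean of 1 CPM or more in control, and all 97 had a lower mean at 7 d. In 95 of them the lowest control library was above the highest 7 d library, against 24.3% of all transcripts at this control level. The mean at 14 d lay between 7 d and control in 90 of 97. In 64 of 97 the lowest 14 d library was above the highest 7 d library, against 18.7% of all such transcripts. These shares follow in part from the rule, since the isoforms add up to the sums it used. In genes with a single isoform they follow from it in full, and such genes were not set apart here. Of the 97 isoforms, 7 had no higher mean at 14 d than at 7 d.

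Of 24 genes with counts in salt and at least 2 isoforms, 19 had the same leading isoform in all groups. In all 24 genes the isoform that led in control was followed. Its share of the gene had a median of 61.9% in control, 60.8% at 7 d and 59.0% at 14 d. This share moved by a median of 7.54 percentage points at 7 d and 3.85 at 14 d. The libraries of control and 7 d did not overlap in this share in 10 of 24 genes, against 35.9% of all genes within the control limits that had 2 or more isoforms. For control and 14 d it was 5 of 24, against 28.6%. By the gene-level F test with adjustment over all genes, isoform use was called changed at 7 d in 5 of 23 genes tested, against 16.1% of all genes tested. At 14 d it was called in 2 of 23, against 9.47%, and between 14 d and 7 d in 2 of 23, against 7.25%. These shares are near the background. With edgeR's Simes version none of the 23 was called in any of the 3 comparisons, with 2, 2 and 4 genes at an unadjusted p under 0.05. That version called 7.22, 3.86 and 3.05% of all genes tested, at which few of 23 genes would be called. With the replicate number as a block the F test called 1 gene in each, against 13.5, 7.44 and 5.37% of all. Without any one of the control or 7 d libraries the 5 calls at 7 d became 0 to 3, against 10.1 to 13.6%.

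**Figure D5:**
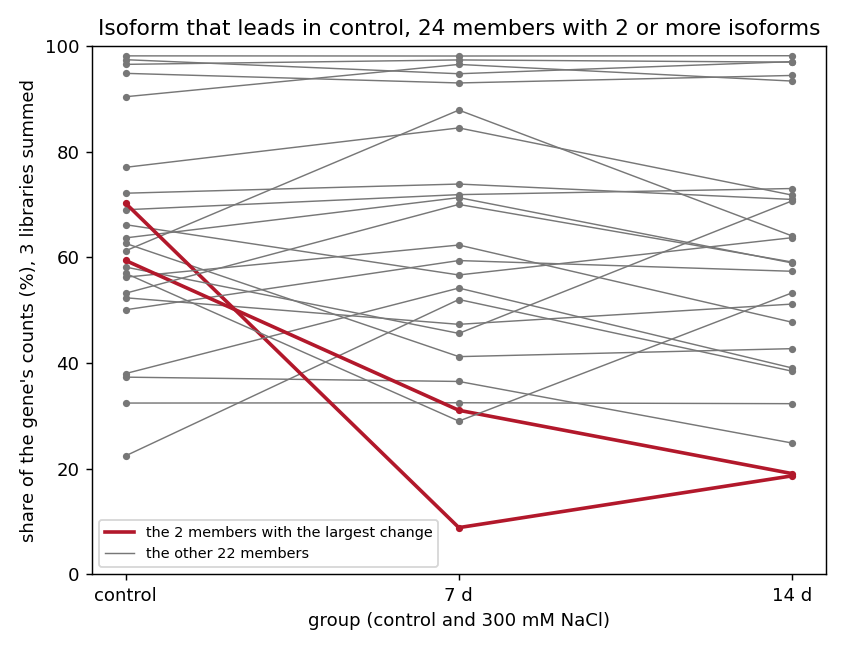
Share of a gene's counts (%, 3 libraries of a group summed) held by the isoform that led in control, for the 24 genes with counts in salt and 2 or more isoforms, at control, 7 d and 14 d. Red lines mark the 2 genes with the largest change at either time, which went from 70.2% to 8.82% and 18.6%, and from 59.4% to 31.0% and 19.0%.

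The largest change in isoform share was in TRINITY_DN39488_c0_g1, described above for its rise. The isoform that led in control held 70.5, 69.9 and 70.1% of the gene in the control libraries and 0, 7.14 and 25% at 7 d. It held 4.62 and 4.95% in 14 d replicates 1 and 2 but 78.9% in 14 d replicate 3. In that seedling most counts of the gene thus fell on the control isoform, and in the other 14 d seedlings on another. The counts behind these shares were low, with 3 of 34 for this isoform at 7 d and 38 of 204 at 14 d. The second largest change was in the gene placed 24th by control level, whose leading isoform held 63.8, 56.9 and 56.0% in control, 40.4, 31.9 and 20.8% at 7 d, and 11.2, 8.84 and 34.4% at 14 d. Here too 14 d replicate 3 lay nearest to control. The sixth gene in control level, singled out after its values were seen, was different: its leading isoform held 58.5, 58.7 and 66.0% in control, 88.8, 87.5 and 87.1% at 7 d, and 69.5, 63.1 and 60.7% at 14 d. Its 7 d libraries were above all others in this share. How reads shared by isoforms were divided between them is an estimate, so these shares are less certain than the sums.

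Genes of 1 assembly component have related sequence and can share reads. The 32 genes came from 31 components, as the tenth and the 28th by control level shared 1. They had 77.2 to 105.6 and 13.1 to 14.9 CPM in control, 7.17 to 14.5 and 0.652 to 1.003 CPM at 7 d, and 31.0 to 48.8 and 3.42 to 3.82 CPM at 14 d, and are not independent of each other. The components held 48 other genes, of which 32 were tested, in 17 components. These were not chosen by the rule. By edgeR's quasi-likelihood test 10 of 32, in 8 components, were called lower at 7 d, beside the 13.9% of all genes tested given above, and 3 were called higher. At 14 d 8 were called lower, beside 8.4%, and 6 of these were also called lower at 7 d. Called higher at 14 d than at 7 d were 5, beside 6.89%, all of them called lower at 7 d. In 1 of these 5 the fitted level at 14 d was above control (log2 change 0.51). The count of 5 was 3 without 7 d replicate 3, beside 3.24% of all genes in that fit, and 3 by limma-voom, beside 5.67%. It was 11 of 48 with no filter on low counts, beside 1.7%. The median log2 change at 7 d over the 32 was -0.40, and 19 of 32 were called neither lower nor higher at 7 d. The part of shared reads in the calls was not tested.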

How the data were processed

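The values are whole-number estimated counts per assembled transcript, deposited by the authors for 9 leaf libraries without scaling between them. The submitters' processing notes list FastQC, HISAT2 and Salmon, with no version, role or order. How the transcripts were assembled is not given in the sources used here. Total counts were 13166552 to 14201943 per library, so that 3 counts were worth 0.211 to 0.228 CPM, and no library was a near copy of another (chi-square per degree of freedom 3.84 to 13.2 between replicates).

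Transcripts were summed per assembled gene, taken as the identifier before its final isoform number, and divided by the library total to give CPM. The members and the comparisons were chosen with earlier results of these data known. With no names for the genes, the marker list planned for leaf tissue could not be used. The identifiers printed are the 2 members with the largest ratio of control to 7 d and, of the others, the 2 with the largest ratio of 14 d to 7 d. Further members were described by their place: the highest 10 and the lowest in control, the ends of the recovered share, the 2 with the largest change in isoform share, and those at the limits.

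For calls, genes passing filterByExpr in edgeR, with minima of 10 for a count and 15 for the total, were fitted in 1 quasi-likelihood model with TMM scaling and no covariate (R 4.3.3, edgeR 4.0.16). P-values were adjusted over all genes tested, and calls were made at 0.05. Isoform use was tested with edgeR's gene-level F test for differential splicing. The tests were tried on simulated data, where the F test for isoform use gave a larger share of false calls than its Simes version, so both counts are printed. The replicate numbers were not shown to pair the samples (correlations of same-numbered deviations -0.22 to 0.37), and a pairing is not excluded by this. Alternatives used voom in limma 3.58.1, DESeq2 1.42.0, other scaling, limits and filters, a replicate block, and each library left out. Figures were drawn with matplotlib 3.10.9.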

Additional observations from a re-analysis of the deposited data

How the results depend on the processing

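The number of genes chosen, 32, was within 1.5 times of that value with TMM-scaled library sizes (36), with DESeq2 size factors (36), with control floors of 5 and 20 CPM (48 and 22) and with no upper limit on control (35). With both of the first settings 29 of the 32 were kept. It moved to 134 with a fold limit midway between 1 and 1.5, to 8 with limits of 2-fold and to 62 when the rule was applied to single transcripts, and the genes lowered at 7 d moved from 1338 to 2071 and 671 with these fold limits. With each library left out, the number chosen ran from 32 to 69, the genes lowered at 7 d from 1338 to 1628, and the median recovered share from 0.49 to 0.54, against 0.51. Under the 8 other settings the recovered share lay between 0.49 and 0.52, a range that the limits of the rule partly set. At least 20 counts in the highest 7 d library, a limit added after the data were seen, left 25 genes, and at least 1 count in salt left 31.

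All 32 genes were called lower at 7 d and at 14 d under each alternative tool, scaling and filter and without each library. Higher at 14 d than at 7 d were 28 to 31 without each library and 29 by limma-voom. The replicate numbers were not shown to pair the seedlings: of 18 comparisons, a library was closest to its own number in 8. With the replicate block the calls were 32, 32 and 31 for genes, and for isoform use 1 in each comparison instead of 5, 2 and 2. Of all genes tested for isoform use, the block called 13.5, 7.44 and 5.37%. The Simes version called 0 in each, against 7.22, 3.86 and 3.05% of all. Without each library, isoform use was called in 0 to 6 genes at 7 d, 1 to 3 at 14 d and 1 to 4 between them. The shares of all genes were then 10.1 to 17%, 5.39 to 10.2% and 3.76 to 8.96%. Genes in shared components called lower at 7 d numbered 9 to 12, beside 9.23 to 14.8% of all genes. Those called higher at 14 d than at 7 d numbered 3 to 7, against 5, beside 3.24 to 8.18%. The cause of these changes was not tested. Counts at 7 d limit the precision of the lowest genes.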
